A study of Rattus norvegicus with 6 samples.

Results

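Genes of the NRF2 antioxidant response, together with the enzymes that remove peroxides and superoxide and the reductases known to act on doxorubicin, were examined in rat mesenchymal stem cells. The collection held 39 listed genes. A gene entered when its symbol stood in the name column of the count table, which left 38 genes of 30560 rows. All 38 also passed the filter on low counts that left 12614 tested genes. Cbr1 had 3 rows, of which 1 had enough counts to be tested. Srxn1, which repairs over-oxidised peroxiredoxins, had no row under its symbol.

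The SMNV group consisted of wild-type cells that received 200 nM doxorubicin, a DNA-damaging anthracycline, for 24 hours and then 100 µg/ml of a preparation named SMNV over the following 6 days in fresh medium. The Dox group was made of wild-type cells with the same doxorubicin exposure and vehicle over those 6 days. Serum was 10% in both groups. Each group had 3 poly(A) RNA-seq libraries, and the labels neither expand the name SMNV nor say which culture or animal a replicate came from. The p-values therefore measure the spread between these samples, which may be technical. Both groups carried the doxorubicin treatment, and libraries of cells that never received it were not analysed here, so no value can be set against an untreated level.

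NRF2, the product of Nfe2l2, is a transcription factor that KEAP1 holds in the cytoplasm and hands to a CUL3 ubiquitin ligase for degradation. Oxidants and electrophiles modify cysteines of KEAP1, NRF2 accumulates, and with a small MAF partner it binds antioxidant response elements in the promoters of genes for quinone reduction, glutathione and thioredoxin metabolism, NADPH supply and heme breakdown. Doxorubicin is itself a quinone, and its reduction by cellular reductases can feed redox cycling of the quinone or turn its side-chain carbonyl into an alcohol.

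The letters of the antioxidant response element core were found close to the start of a minority of these genes. RefSeq promoter windows of the GRCr8 assembly, from 250 bases before to 50 bases after a gene start, were given for 34 of the 39 listed genes, 37 windows in all. The core searched was TGACNNNGC, on both strands, and 8 of the 37 windows (21.6%) held it, against 12.1% of all 33469 rat windows. The AP-1 letters TGANTCA stood in 3 of the 37 windows and in 7.33% of all windows. The 250 bases before the gene start are shown for the 4 genes whose match lay entirely before it by more than 50 bases, namely Prdx1 at chr5:135383656-135383905 (plus strand), Me1 at chr8:96540245-96540494 (minus strand), Gclm at chr2:213031885-213032134 (plus strand) and Txnrd1 at chr7:22755905-22756154 (minus strand). Each is written 5′ to 3′ on the strand of its gene, and capitals mark the match, which reads as its reverse complement in Prdx1, Gclm and Txnrd1.
Prdx1: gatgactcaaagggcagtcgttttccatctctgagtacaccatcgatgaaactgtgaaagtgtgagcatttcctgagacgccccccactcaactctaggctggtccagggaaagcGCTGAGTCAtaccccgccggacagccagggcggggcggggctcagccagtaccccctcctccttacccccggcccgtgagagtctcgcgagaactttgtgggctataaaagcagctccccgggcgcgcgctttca
Me1: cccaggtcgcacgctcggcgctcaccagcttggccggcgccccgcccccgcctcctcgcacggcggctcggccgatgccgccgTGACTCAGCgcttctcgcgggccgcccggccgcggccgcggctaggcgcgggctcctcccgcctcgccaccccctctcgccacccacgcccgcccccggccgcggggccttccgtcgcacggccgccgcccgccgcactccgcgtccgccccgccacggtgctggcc
Gclm: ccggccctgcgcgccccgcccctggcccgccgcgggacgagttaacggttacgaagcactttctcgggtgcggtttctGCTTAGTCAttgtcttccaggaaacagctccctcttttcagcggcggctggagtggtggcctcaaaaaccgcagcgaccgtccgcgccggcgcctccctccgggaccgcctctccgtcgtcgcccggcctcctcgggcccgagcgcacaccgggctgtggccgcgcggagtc
Txnrd1: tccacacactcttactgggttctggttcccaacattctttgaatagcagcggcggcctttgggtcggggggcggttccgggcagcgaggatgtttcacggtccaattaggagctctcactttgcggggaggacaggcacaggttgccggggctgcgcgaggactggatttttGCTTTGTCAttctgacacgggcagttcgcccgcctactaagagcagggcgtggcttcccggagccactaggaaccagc
The matches began 135 bases before the gene start in Prdx1, 167 in Me1, 172 in Gclm and 78 in Txnrd1. Read on the strand of the core, Prdx1 and Me1 carried the same letters, TGACTCAGC, and in both the match overlapped the AP-1 letters. Gclm read TGACTAAGC and Txnrd1 TGACAAAGC. The other windows with the core were those of Prdx4, Prdx5, Sod2 and Nfe2l2 itself, close to or after the gene start. The expression files used mRatBN7.2, so these positions are not those of the counted reads, and a match is a description of letters, not a bound site.

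In the SMNV libraries the antioxidant genes split in direction instead of moving together, and all tested genes also split nearly evenly. Keap1, Hmox1 and the transketolase gene Tkt rose, as did 2 of 3 glutathione peroxidase and 3 of 6 peroxiredoxin genes, while Nqo1, the cytosolic thioredoxin Txn1, the glutathione synthetase Gss and the abundant peroxiredoxin Prdx1 fell. By edgeR's quasi-likelihood test, with p-values adjusted over all 12614 tested genes and a threshold of 0.05, 15 of the 38 genes were higher in SMNV, 13 were lower and 10 did not pass. That is 73.7% called, beside 60.4% of all tested genes, with 39.5% higher beside 30.5% and 34.2% lower beside 29.9%. Log2 fold changes are SMNV over Dox, followed by ± the standard error (SE). Their median was 0.10 for the 38 genes, beside -0.01 over all tested genes. The genes were also more abundant than most, with a median level of 62.8 CPM (TMM-scaled read counts relative to library size) beside 23.1 CPM over all tested genes.

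Most of the changes were modest. Only Keap1, Hmox1 and Nqo1 changed by over 2-fold, 3 of 38 genes beside 10.2% of all tested genes, and 16 of the 28 changed genes moved by less than 1.5-fold. In 30 of the 38 genes the CPM ranges of the groups were separate (78.9%), beside 66.9% of all tested genes. On the authors' TPM values, tested with limma on log2(TPM + 1), the 15 higher and the 13 lower genes kept their calls and Gclc and Gsr joined the lower ones. The background moved more on that scale, where 39.8% of all changed genes were higher in place of 50.4% on counts (24.4% of tested genes higher and 36.9% lower) and the median of all tested genes was -0.10. The bulk libraries cannot tell fewer cells of a type from less RNA per cell.

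**Figure D1:**
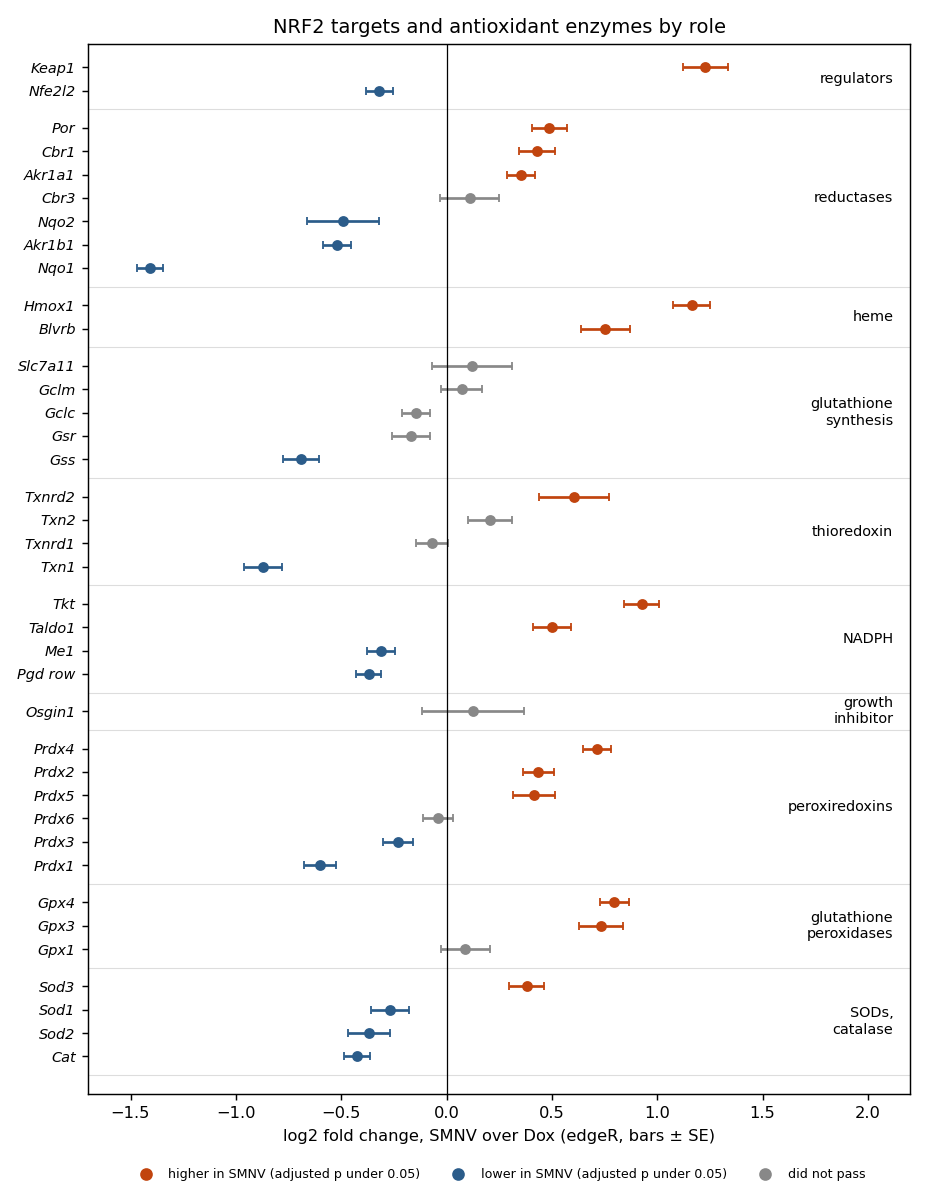
Log2 fold change of each of the 38 tested genes in SMNV over Dox (horizontal axis, points with bars of ± SE from edgeR), grouped by role; red points were higher in SMNV, blue points lower and grey points did not pass an adjusted p of 0.05. Keap1 at 1.23 and Hmox1 at 1.16 lay farthest to the right, Nqo1 at -1.41 farthest to the left, and every role group with 4 or more genes except glutathione synthesis held both red and blue points.

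Libraries of a group resembled each other closely. They held 18640909 to 21506967 estimated counts, and log2 CPM correlated with Pearson's r of 0.989 to 0.992 inside each group, against 0.947 to 0.969 across groups. All 10 mesenchymal stromal markers were tested, with summed levels, in CPM of the unscaled total, of 73885 to 87614 CPM in SMNV and 42484 to 49508 CPM in Dox. Most of that sum was the collagen genes Col1a1, at 41417 CPM in SMNV and 19553 CPM in Dox after scaling, and Col1a2, at 33523 CPM in SMNV and 16519 CPM in Dox. By count 5 of the 10 markers were higher and 3 lower, the lower ones being Cd44 (-1.08), Itgb1 (-0.64) and Pdgfra (-0.40) on the log2 scale. Haematopoietic and macrophage markers summed to 6.27 to 7.53 CPM in SMNV and 7.50 to 9.03 CPM in Dox, and Ptprc, Itgam, Adgre1 and C1qb were at 0 in every library. Most of that sum was Cd14 and Csf1r, the 2 tested genes of this list. Csf1r was lower at -0.91 on the log2 scale (adjusted p = 0.00416), and Cd14 did not pass at 0.12 (adjusted p = 0.626). Endothelial markers summed to 1.27 to 2.33 CPM in SMNV and 1.45 to 3.04 CPM in Dox, erythroid markers to at most 0.279 CPM in SMNV and 0.252 CPM in Dox, and smooth muscle markers to 3366 to 3541 CPM in SMNV and 3078 to 3524 CPM in Dox. Of the 6 smooth muscle markers 2 were higher and 1 lower. Smtn rose to 341 CPM in SMNV, against 98.5 CPM in Dox (adjusted p = 1.33e-09). Tagln was higher at 0.16 on the log2 scale (adjusted p = 0.045) and Des lower at -0.26 (adjusted p = 0.012). Of all counts, 17.8% to 19.4% in SMNV and 14.4% to 15.2% in Dox belonged to the top 10 genes, and a 28S ribosomal RNA row held 31.3 to 124 CPM in SMNV and 1.25 to 5.93 CPM in Dox. The part of these differences in the results was not tested. Short genes were shifted upward, the median log2 fold change being 0.12 in the shortest of 5 equal length classes and -0.14 in the longest, and 17 of the 38 genes were in the shortest class. With that length trend removed, 15 genes were still higher and 13 lower.

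Among the regulators, the repressor rose and the factor fell. Keap1, the NRF2 repressor, had 42.1, 36.2 and 45.4 CPM in SMNV 1, 2 and 3, against 15.5, 19.5 and 17.8 CPM in Dox 1, 2 and 3. The lowest SMNV library stood well above the highest Dox library. Its mean was 41.2 ± 4.66 CPM in SMNV and 17.6 ± 2.01 CPM in Dox (SD, n = 3 each), a log2 fold change of 1.23 ± 0.11 (adjusted p = 2.64e-07), or 2.34-fold. Nfe2l2 had 255, 269.6 and 276 CPM in SMNV 1, 2 and 3, against 353, 319 and 327 CPM in Dox 1, 2 and 3. All SMNV libraries were below all Dox libraries, and Dox 1 was the highest. Nfe2l2 fell, its log2 fold change being -0.32 ± 0.06 (adjusted p = 0.000504). Per length, Nfe2l2 remained the more abundant of the pair, and the Keap1 to Nfe2l2 ratio of TPM was 0.148, 0.119 and 0.147 in SMNV 1, 2 and 3, against 0.0383, 0.0539 and 0.0471 in Dox 1, 2 and 3. The ratio was higher in each SMNV library than in any Dox library.

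Of the other genes around NRF2, 14 were tested, of which 4 rose, 3 fell and 7 missed the threshold. Their median log2 fold change was 0.11, and on TPM 2 rose and 5 fell. On counts, the share of this list that was called was below the 60.4% of all tested genes. Sqstm1, the autophagy receptor p62 that can bind KEAP1, rose to 417 CPM in SMNV, against 265 CPM in Dox, a log2 fold change of 0.65 ± 0.08 (adjusted p = 5.46e-06). Nfe2l1, the NRF1 gene, a relative that controls proteasome genes, rose by 0.30 (adjusted p = 0.00216). Cul3, the scaffold of the ligase that KEAP1 serves, fell, its log2 fold change being -0.44 ± 0.07 (adjusted p = 8.31e-05). Gsk3b, a kinase that marks NRF2 for a KEAP1-independent route of degradation, was lower at -0.33 (adjusted p = 0.0132). The Gsk3b call was lost without SMNV 2 (-0.26, adjusted p = 0.0654) or SMNV 3 (-0.23, adjusted p = 0.084). With a promoter GC trend removed, an alternative chosen after seeing the data, Gsk3b stood at -0.07 (adjusted p = 0.53) and was not called.

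Among the quinone and carbonyl reductases, Nqo1 fell the most while the enzymes that reduce carbonyl groups moved in both directions: of 7 genes 3 rose, 3 fell and 1 did not pass. That is 85.7% called, beside 60.4% of all tested genes. Nqo1, the NAD(P)H-dependent quinone reductase that is the customary readout of NRF2 activity, had 256, 277 and 276 CPM in SMNV 1, 2 and 3, against 712, 722 and 714 CPM in Dox 1, 2 and 3. The libraries of each group were tight, and the groups were far apart. Nqo1 averaged 269.7 ± 12.0 CPM in SMNV and 716 ± 5.14 CPM in Dox (SD, n = 3 each), a log2 fold change of -1.41 ± 0.06 (adjusted p = 2.54e-10), so that the Dox level was 2.65 times the SMNV level. Its relative Nqo2, which uses dihydronicotinamide riboside in place of NAD(P)H, was scarce, at 4.09 ± 0.411 CPM in SMNV and 5.75 ± 0.761 CPM in Dox (SD, n = 3 each). The Nqo2 value of -0.49 ± 0.17 (adjusted p = 0.021) passed, but the call was lost without SMNV 1 (-0.41, adjusted p = 0.0861) or Dox 1 (-0.38, adjusted p = 0.0953). Per length, Nqo1 provided 98.7% to 98.9% of the TPM of the pair in SMNV and 99.2% to 99.4% in Dox.

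Akr1b1, the aldose reductase, had 97.5, 113 and 104 CPM in SMNV 1, 2 and 3, against 150.4, 152 and 149 CPM in Dox 1, 2 and 3. The groups did not overlap, and the Dox libraries lay within a narrow range. Akr1b1 fell, its log2 fold change being -0.52 ± 0.07 (adjusted p = 9.42e-06). Akr1a1, an aldehyde reductase known in humans to reduce doxorubicin to doxorubicinol, rose to 514 ± 33.8 CPM in SMNV, against 403 ± 11.5 CPM in Dox (SD, n = 3 each), a log2 fold change of 0.35 ± 0.06 (adjusted p = 0.000267) that was 0.23 on TPM. Por, the cytochrome P450 reductase that passes single electrons to the doxorubicin quinone, had 69.8, 62.9 and 75.2 CPM in SMNV 1, 2 and 3, against 45.1, 51.1 and 51.9 CPM in Dox 1, 2 and 3. Every SMNV library was above every Dox library, and the log2 fold change was 0.49 ± 0.08 (adjusted p = 0.000129).

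The Cbr1 value needs care with identity. The row with counts carries the symbol Cbr1, the name of a carbonyl reductase known in humans to act on doxorubicin, but its description calls it carbonyl reductase 1-like and its Entrez number leads to the RefSeq symbol Cbr1l2. This row rose, with 30.6 ± 1.46 CPM in SMNV and 22.7 ± 1.07 CPM in Dox (SD, n = 3 each), and its log2 fold change was 0.43 ± 0.09 (adjusted p = 0.000602). The other rows named Cbr1 are described as carbonyl reductase 1 and were not tested. They held at most 4.17 counts in a library (Dox 2). Whether reads were divided among near-identical copies was not tested. On log2(TPM + 1) the log2 fold change of the tested row was 0.64. Its TPM was 60.7, 39.85 and 60.6 in SMNV 1, 2 and 3, against 35.6, 33.7 and 31.4 in Dox 1, 2 and 3. The related Cbr3, at 7.45 CPM in SMNV and 6.90 CPM in Dox, did not pass at 0.11 ± 0.14 (adjusted p = 0.521).

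Of 17 other tested reductases of these families, 7 rose, 6 fell and 4 did not pass, with a median log2 fold change of 0.04. The called share was 76.5%, beside 60.4% of all tested genes. Ptgr1, the prostaglandin reductase that also reduces reactive alkenals, fell to 229.8 CPM in SMNV, against 599 CPM in Dox, a log2 fold change of -1.38 ± 0.07 (adjusted p = 1.10e-09). The row named Akr1b8, whose description reads aldose reductase-related protein 1-like and whose Entrez number leads to Akr1b10, fell to 119 CPM in SMNV, against 297 CPM in Dox, a log2 fold change of -1.33 ± 0.06 (adjusted p = 4.08e-10). Both falls were of the same order as that of Nqo1. Akr7a2, an aldehyde reductase, rose to 26.6 CPM in SMNV, against 12.1 CPM in Dox, a log2 fold change of 1.14 ± 0.11 (adjusted p = 9.59e-07). Cyb5r3, the cytochrome b5 reductase, rose by 0.40 (adjusted p = 8.67e-05).

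Both heme breakdown genes rose, beside 30.5% of all tested genes that were higher. Hmox1, the inducible heme oxygenase that releases iron, carbon monoxide and biliverdin, had 69.4, 64.6 and 71.9 CPM in SMNV 1, 2 and 3, against 26.8, 32.9 and 32.3 CPM in Dox 1, 2 and 3. Every SMNV library was far above every Dox library. Hmox1 averaged 68.6 ± 3.73 CPM in SMNV and 30.7 ± 3.38 CPM in Dox (SD, n = 3 each), a log2 fold change of 1.16 ± 0.09 (adjusted p = 6.26e-08), or 2.24-fold. Blvrb, a biliverdin and flavin reductase, had 30.5, 28.8 and 32.3 CPM in SMNV 1, 2 and 3, against 15.5, 22.0 and 16.9 CPM in Dox 1, 2 and 3. Dox 2 was the highest of its group and still below every SMNV library. Its log2 fold change was 0.75 ± 0.12 (adjusted p = 6.16e-05) on counts and 1.05 on log2(TPM + 1). Of the 2 other genes of this route, Blvra, the biliverdin reductase that makes bilirubin, fell by 0.33 on the log2 scale (adjusted p = 0.00261; -0.21 with a promoter GC trend removed, adjusted p = 0.0383) and the constitutive oxygenase Hmox2 stood at -0.03 ± 0.09 (adjusted p = 0.818).

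**Figure D2:**
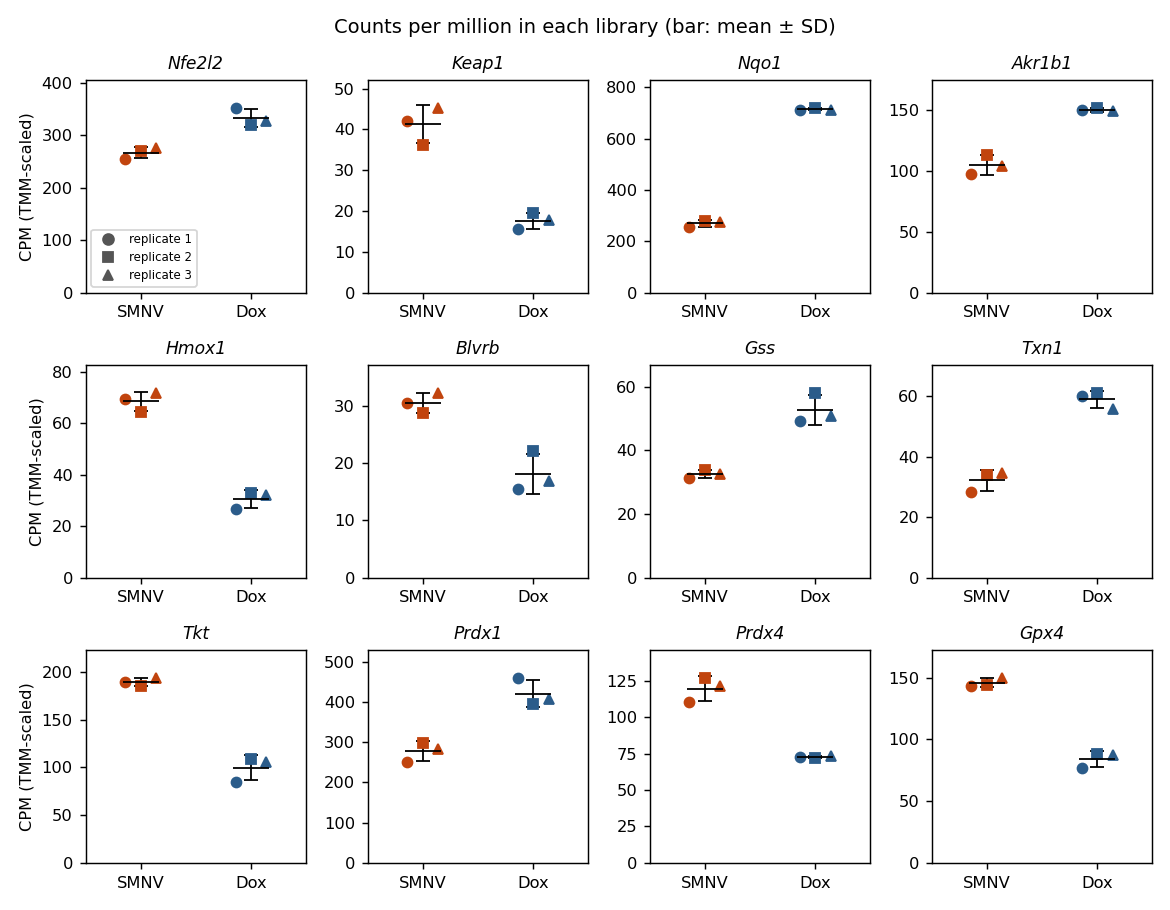
CPM after TMM scaling in each library (vertical axes, all starting at 0) for 12 genes, with SMNV in red on the left and Dox in blue on the right of each panel; marker shape gives the replicate number, and the bar is the mean ± SD. The genes shown were chosen with their values known, and the groups overlap in none of the 12 panels, beside 66.9% of all tested genes without overlap, with Nqo1 at 269.7 ± 12.0 CPM in SMNV and 716 ± 5.14 CPM in Dox and Hmox1 at 68.6 ± 3.73 CPM in SMNV and 30.7 ± 3.38 CPM in Dox.

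Of the 5 genes of glutathione synthesis and recycling, 1 fell and 4 did not pass. Gss, which adds glycine in the last step of glutathione synthesis, had 31.3, 34.0 and 32.6 CPM in SMNV 1, 2 and 3, against 49.1, 58.1 and 50.7 CPM in Dox 1, 2 and 3. The SMNV libraries lay close together below all Dox libraries, of which Dox 2 was the highest. Gss fell, its log2 fold change being -0.69 ± 0.09 (adjusted p = 6.88e-06). Gclc, the catalytic subunit of the rate-limiting glutamate-cysteine ligase, had 71.7, 76.2 and 70.0 CPM in SMNV 1, 2 and 3, against 83.5, 78.7 and 78.9 CPM in Dox 1, 2 and 3. The groups did not overlap but lay near each other, and the log2 fold change of -0.15 ± 0.07 missed the threshold on counts (adjusted p = 0.0661) and passed it on TPM (-0.26, adjusted p = 0.00789). Gsr, which reduces oxidised glutathione with NADPH, had 27.0, 26.1 and 26.9 CPM in SMNV 1, 2 and 3, against 27.8, 33.0 and 29.1 CPM in Dox 1, 2 and 3. Its groups also lay near each other without overlap. The Gsr value of -0.17 ± 0.09 missed the threshold (adjusted p = 0.118) but passed on TPM (-0.25, adjusted p = 0.0321) and without Dox 1 (-0.22, adjusted p = 0.0477).

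Gclm, the modifier subunit of the ligase and a carrier of the response element letters shown above, stood at 18.3 ± 1.27 CPM in SMNV and 17.4 ± 0.224 CPM in Dox (SD, n = 3 each), and the log2 fold change was 0.07 ± 0.10 (adjusted p = 0.538). The TPM ratio of Gclc to Gclm was 1.78, 1.66 and 1.70 in SMNV 1, 2 and 3, against 2.05, 1.93 and 1.98 in Dox 1, 2 and 3, lower in each SMNV library than in any Dox library. Slc7a11, the cystine importer that supplies cysteine, was low at 5.56 ± 1.41 CPM in SMNV and 5.12 ± 0.389 CPM in Dox (SD, n = 3 each) and its log2 fold change was 0.12 ± 0.19 (adjusted p = 0.598). For both genes no difference was detectable at this depth and spread.

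Of 16 other tested glutathione genes, 7 rose, 3 fell and 6 did not pass, with a median of 0.29. The called share was 62.5%, beside 60.4% of all tested genes. Slc25a39, the carrier that brings glutathione into mitochondria, rose to 99.2 CPM in SMNV, against 47.4 CPM in Dox, a log2 fold change of 1.07 ± 0.07 (adjusted p = 2.07e-08). Chac1, which degrades glutathione, rose to 29.2 CPM in SMNV, against 15.9 CPM in Dox, a log2 fold change of 0.88 ± 0.09 (adjusted p = 1.52e-06). Glrx3 and Glrx2, glutaredoxins of the cytosol and mitochondria, fell by 0.67 (adjusted p = 7.48e-07) and 0.42 (adjusted p = 0.0031) on the log2 scale. The Glrx2 call was lost with a promoter GC trend removed (-0.12, adjusted p = 0.306), an alternative chosen after seeing the data.

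In the thioredoxin system the cytosolic disulfide reductant fell and the mitochondrial reductase rose, while the 2 other genes did not pass. Txn1 had 28.2, 33.8 and 34.6 CPM in SMNV 1, 2 and 3, against 60.0, 61.2 and 55.6 CPM in Dox 1, 2 and 3. The highest SMNV library was well under the lowest Dox library. Txn1 averaged 32.2 ± 3.51 CPM in SMNV and 58.9 ± 2.92 CPM in Dox (SD, n = 3 each), a log2 fold change of -0.87 ± 0.09 (adjusted p = 1.06e-06), so that the Dox level was 1.83 times the SMNV level. Txnrd2, the selenoprotein that reduces thioredoxin in mitochondria, had 13.6, 12.9 and 15.4 CPM in SMNV 1, 2 and 3, against 6.44, 11.4 and 9.76 CPM in Dox 1, 2 and 3. Dox 1 was the lowest library, and without it the log2 fold change of 0.61 ± 0.17 (adjusted p = 0.00538) became 0.40 (adjusted p = 0.0166). Txn2, the mitochondrial thioredoxin, had 41.9, 45.2 and 46.4 CPM in SMNV 1, 2 and 3, against 31.6, 42.6 and 41.6 CPM in Dox 1, 2 and 3. Its groups overlapped, and the value of 0.21 ± 0.10 (adjusted p = 0.0995) passed only without Dox 2 (0.28, adjusted p = 0.0414) or with no filter on low counts (0.22, adjusted p = 0.0416).

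Txnrd1, the cytosolic thioredoxin reductase and another carrier of the response element letters, stood at 108 ± 6.26 CPM in SMNV and 113 ± 10.1 CPM in Dox (SD, n = 3 each), and the log2 fold change was -0.07 ± 0.07 (adjusted p = 0.436). Per length the mitochondrial form was the scarcer of the pair, and the TPM ratio of Txnrd2 to Txnrd1 was 0.228, 0.245 and 0.273 in SMNV 1, 2 and 3, against 0.121, 0.178 and 0.165 in Dox 1, 2 and 3. The SMNV ratios were all above the Dox ratios. A row without a symbol, whose Entrez number leads to Srxn1, held 12, 8 and 26 counts in SMNV 1, 2 and 3, against 0, 4 and 3 counts in Dox 1, 2 and 3. These counts were too few for the filter and were not tested.

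Of 15 other tested thioredoxin and methionine repair genes, 4 rose, 2 fell and 9 did not pass, with a median of 0.12. The called share was 40.0%, below the 60.4% of all tested genes. Park7, the DJ-1 gene that protects against oxidants, rose by 0.31 (adjusted p = 0.0031) and Sesn2, a stress-induced sestrin, by 0.25 (adjusted p = 0.0059), and like the 2 other rising genes of the list they lost the call on TPM (0.12, adjusted p = 0.206, and 0.17, adjusted p = 0.0609). Txndc9, a thioredoxin-like regulator of chaperonin folding, fell by 0.57 on the log2 scale (adjusted p = 4.06e-05), and Msrb3, a methionine sulfoxide reductase, fell by 0.32 (adjusted p = 0.000236).

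Of the 4 genes of NADPH supply and the pathways around it, Tkt and Taldo1 rose and Me1 and the Pgd row fell. All 4 were called, beside 60.4% of all tested genes. Tkt, the transketolase of the non-oxidative branch, had 189.9, 185 and 194 CPM in SMNV 1, 2 and 3, against 84.6, 109 and 106 CPM in Dox 1, 2 and 3. The SMNV libraries were nearly equal, and Dox 1 was the lowest Dox library. Tkt averaged 189.7 ± 4.36 CPM in SMNV and 99.8 ± 13.3 CPM in Dox (SD, n = 3 each), a log2 fold change of 0.93 ± 0.08 (adjusted p = 3.10e-07), or 1.90-fold. Taldo1, the transaldolase of the same branch, had 93.9, 104 and 103 CPM in SMNV 1, 2 and 3, against 59.1, 79.5 and 74.0 CPM in Dox 1, 2 and 3. The groups did not overlap, and the log2 fold change was 0.50 ± 0.09 (adjusted p = 0.000253). Me1, the cytosolic malic enzyme that makes NADPH from malate, fell to 109.5 ± 7.11 CPM in SMNV, against 136 ± 4.67 CPM in Dox (SD, n = 3 each), a log2 fold change of -0.31 ± 0.07 (adjusted p = 0.000858).

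The row named Pgd had 506, 488 and 492 CPM in SMNV 1, 2 and 3, against 635, 658 and 627 CPM in Dox 1, 2 and 3. All SMNV libraries were lower, and the log2 fold change was -0.37 ± 0.06 (adjusted p = 7.59e-05), which became -0.24 with the gene length trend removed. Its identity is uncertain, because the row bears the symbol of 6-phosphogluconate dehydrogenase, an NADPH-producing enzyme of the pentose phosphate pathway, but the description and Entrez number of Kif1b, a kinesin gene next to Pgd in RefSeq. Its listed length of 6232 bases was 2.41 to 2.53 times the length that its own counts and TPM imply. Reads of the 2 genes could not be told apart in this row, and no row bore the symbol Kif1b.

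Of 17 other tested genes of NADPH supply and the pathways around it, 7 rose, 5 fell and 5 did not pass. Their median was 0.06, and 70.6% were called, beside 60.4% of all tested genes. Pgls, a lactonase of the pentose phosphate pathway, rose to 10.2 CPM in SMNV, against 3.96 CPM in Dox, a log2 fold change of 1.36 ± 0.19 (adjusted p = 2.83e-05) that was 0.85 on TPM. Idh2, the mitochondrial isocitrate dehydrogenase that makes NADPH, rose to 199.7 CPM in SMNV, against 131 CPM in Dox, a log2 fold change of 0.61 ± 0.06 (adjusted p = 9.01e-07). Rpe, the ribulose phosphate epimerase, fell by 0.42 on the log2 scale (adjusted p = 0.00103).

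Osgin1, a growth inhibitor induced by oxidative stress, was rare. It had 3.03, 2.25 and 2.47 CPM in SMNV 1, 2 and 3, against 2.49, 1.79 and 2.81 CPM in Dox 1, 2 and 3. The groups overlapped, and the log2 fold change of 0.13 ± 0.24 (adjusted p = 0.669) did not pass.

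Peroxiredoxins, thiol enzymes that reduce hydrogen peroxide, changed in composition, with 3 of 6 genes higher, 2 lower and 1 not passing. The called share was 83.3%, beside 60.4% of all tested genes. Prdx1, the main cytosolic form, had 250.4, 299 and 284 CPM in SMNV 1, 2 and 3, against 460.2, 396 and 406 CPM in Dox 1, 2 and 3. Dox 1 was the highest library and SMNV 1 the lowest, and the groups were well apart. Prdx1 fell, its log2 fold change being -0.60 ± 0.08 (adjusted p = 9.88e-06). Prdx4, the form of the endoplasmic reticulum, had 110.2, 127 and 121 CPM in SMNV 1, 2 and 3, against 72.6, 72.2 and 73.4 CPM in Dox 1, 2 and 3. The Dox libraries were almost equal and all SMNV libraries were higher, and the log2 fold change was 0.72 ± 0.07 (adjusted p = 4.81e-07). Prdx2, a cytosolic form abundant in red cells, had 136, 136 and 156 CPM in SMNV 1, 2 and 3, against 99.0, 114 and 103 CPM in Dox 1, 2 and 3. The SMNV libraries were again all above the Dox libraries, and the log2 fold change was 0.44 ± 0.07 (adjusted p = 0.00013), while the erythroid markers were near 0 in both groups.

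Prdx5, found in mitochondria and peroxisomes, rose to 100.4 ± 11.2 CPM in SMNV, against 75.3 ± 11.5 CPM in Dox (SD, n = 3 each), a log2 fold change of 0.42 ± 0.10 (adjusted p = 0.00224), although its TPM values overlapped between the groups. Prdx3, the mitochondrial form, was lower at 71.2 ± 3.90 CPM in SMNV and 83.5 ± 4.43 CPM in Dox (SD, n = 3 each), and the log2 fold change was -0.23 ± 0.07 (adjusted p = 0.00954), and without SMNV 1 it missed the threshold (-0.18, adjusted p = 0.0524). Prdx6, which also has phospholipase activity, did not pass at -0.04 ± 0.07 (adjusted p = 0.624). Per length, the 6 genes summed to 1904 ± 87.5 TPM in SMNV and 2093 ± 52.8 TPM in Dox (SD, n = 3 each). Prdx1 made up 35.9 ± 1.64% of that sum in SMNV and 53.9 ± 3.16% in Dox, Prdx2 21.4 ± 1.72% in SMNV and 13.6 ± 1.24% in Dox, and Prdx4 16.5 ± 0.827% in SMNV and 10.1 ± 0.313% in Dox. For each of these 3 shares the libraries of the groups did not overlap, and shares of 1 sum are not independent of each other.

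**Figure D3:**
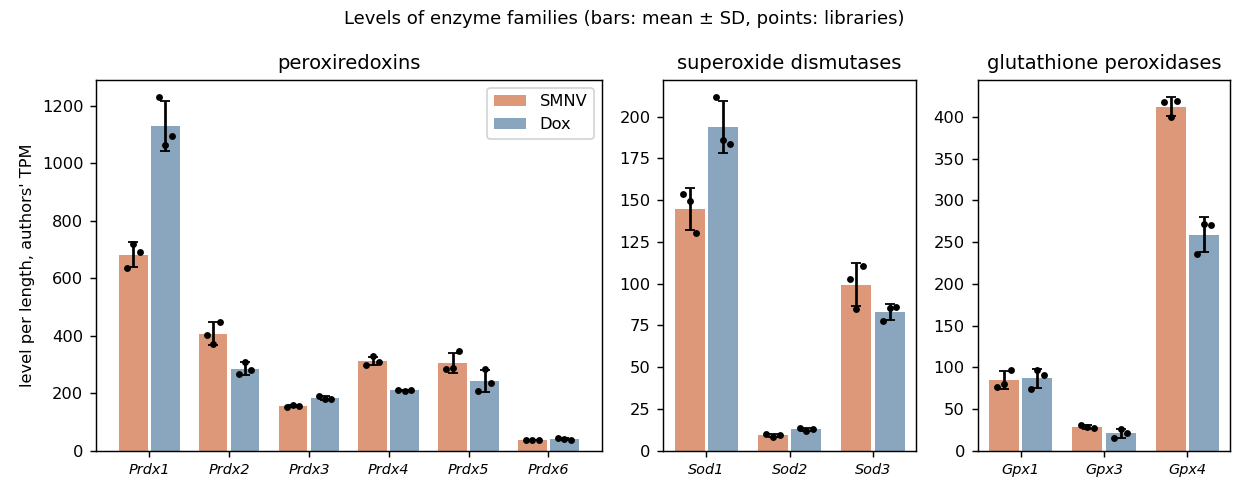
The authors' TPM (level per length, vertical axes from 0) of the peroxiredoxin, superoxide dismutase and glutathione peroxidase genes, SMNV in red left of Dox in blue; bars are means, error bars SD and dots the 3 libraries. Prdx1 is the tallest bar, at 683 ± 42.7 TPM in SMNV and 1129.5 ± 88.1 TPM in Dox, and Gpx4 dominates its family, at 412 ± 11.0 TPM in SMNV and 259 ± 20.5 TPM in Dox.

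Of the 3 glutathione peroxidase genes, Gpx4 and Gpx3 rose and Gpx1 did not pass, so that 66.7% were called, beside 60.4% of all tested genes. Gpx4, the selenoprotein that reduces lipid hydroperoxides in membranes and restrains ferroptosis, had 143, 144 and 149.8 CPM in SMNV 1, 2 and 3, against 76.7, 88.2 and 87.0 CPM in Dox 1, 2 and 3. The groups lay far apart, and Dox 1 was the lowest library. Gpx4 averaged 146 ± 3.47 CPM in SMNV and 84.0 ± 6.30 CPM in Dox (SD, n = 3 each), a log2 fold change of 0.80 ± 0.07 (adjusted p = 1.87e-07), or 1.74-fold. Gpx3, a secreted form, had 26.9, 29.1 and 27.5 CPM in SMNV 1, 2 and 3, against 14.7, 18.9 and 16.8 CPM in Dox 1, 2 and 3. The groups did not overlap, and the log2 fold change was 0.73 ± 0.10 (adjusted p = 2.17e-05) on counts and 0.45 on log2(TPM + 1). Gpx1, the cytosolic form, had 27.4, 30.3 and 36.0 CPM in SMNV 1, 2 and 3, against 25.1, 32.6 and 30.4 CPM in Dox 1, 2 and 3. Its groups overlapped, and the value of 0.09 ± 0.12 (adjusted p = 0.52) did not pass. The family summed to 525 ± 17.2 TPM in SMNV and 367 ± 36.9 TPM in Dox, with Gpx4 at 78.5 ± 1.19% of it in SMNV and 70.7 ± 1.75% in Dox (SD, n = 3 each).

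Among superoxide dismutases and catalase, the 3 intracellular enzymes fell and the extracellular form rose. These 4 genes were thus all called, beside 60.4% of all tested genes. Cat, the peroxisomal catalase, had 167, 171 and 183 CPM in SMNV 1, 2 and 3, against 235, 237 and 228 CPM in Dox 1, 2 and 3. All SMNV libraries were below all Dox libraries, and the log2 fold change was -0.43 ± 0.06 (adjusted p = 2.89e-05). Sod2, the mitochondrial manganese enzyme, had 21.5, 18.2 and 21.1 CPM in SMNV 1, 2 and 3, against 28.2, 23.9 and 26.3 CPM in Dox 1, 2 and 3. The groups were close but separate, and Sod2 fell, its log2 fold change being -0.37 ± 0.10 (adjusted p = 0.00516). Sod3, the extracellular form bound to matrix, had 105, 91.8 and 119 CPM in SMNV 1, 2 and 3, against 75.8, 83.2 and 83.8 CPM in Dox 1, 2 and 3. It rose, its log2 fold change being 0.38 ± 0.08 (adjusted p = 0.00131), which was 0.25 on log2(TPM + 1), where the groups overlapped.

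Sod1, the cytosolic copper and zinc enzyme, averaged 38.9 ± 3.29 CPM in SMNV and 46.8 ± 4.11 CPM in Dox (SD, n = 3 each). Its log2 fold change was -0.27 ± 0.09 (adjusted p = 0.0174) on counts and -0.42 on log2(TPM + 1), and the call was lost without SMNV 3 (-0.19, adjusted p = 0.106) or Dox 1 (-0.19, adjusted p = 0.0706). Per length the 3 dismutases summed to 253 ± 12.4 TPM in SMNV and 290 ± 11.7 TPM in Dox, and Sod3 held 39.2 ± 4.60% of the sum in SMNV and 28.7 ± 2.70% in Dox (SD, n = 3 each). The share of Sod3 was higher in each SMNV library than in any Dox library.

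All 10 other tested peroxidases, chaperone and oxidant-source genes passed the test, 6 higher and 4 lower, with a median of 0.34, beside 30.5% higher and 29.9% lower among all tested genes. Gpx7, a peroxidase of the endoplasmic reticulum, rose to 121 CPM in SMNV, against 75.6 CPM in Dox, a log2 fold change of 0.68 ± 0.06 (adjusted p = 4.32e-07) that was 1.28 on TPM. Its relative Gpx8, in the membrane of the same compartment, fell by 0.60 on the log2 scale (adjusted p = 4.23e-06). Cyba, the p22 subunit of NADPH oxidases, rose to 11.3 CPM in SMNV, against 4.83 CPM in Dox, or 1.23 ± 0.16 (adjusted p = 9.94e-06) on the log2 scale. The oxidase-activating small GTPase Rac1 fell by 0.40 on the log2 scale (adjusted p = 0.000186).

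Of 14 other tested conjugation and NRF2-regulated genes, 3 rose, 5 fell and 6 did not pass, with a median of -0.01. The called share was 57.1%, beside 60.4% of all tested genes. Trib3, a stress-induced pseudokinase, rose to 28.7 CPM in SMNV, against 9.35 CPM in Dox, a log2 fold change of 1.62 ± 0.13 (adjusted p = 1.15e-07). Slc6a9, a glycine transporter, rose by 0.79 (adjusted p = 2.03e-05). Ephx1, the microsomal epoxide hydrolase, fell to 3.62 CPM in SMNV, against 8.98 CPM in Dox, a log2 fold change of -1.31 ± 0.17 (adjusted p = 1.12e-05). Mgst2, a microsomal glutathione transferase, fell by 0.55 on the log2 scale (adjusted p = 0.000242).

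**Figure D4:**
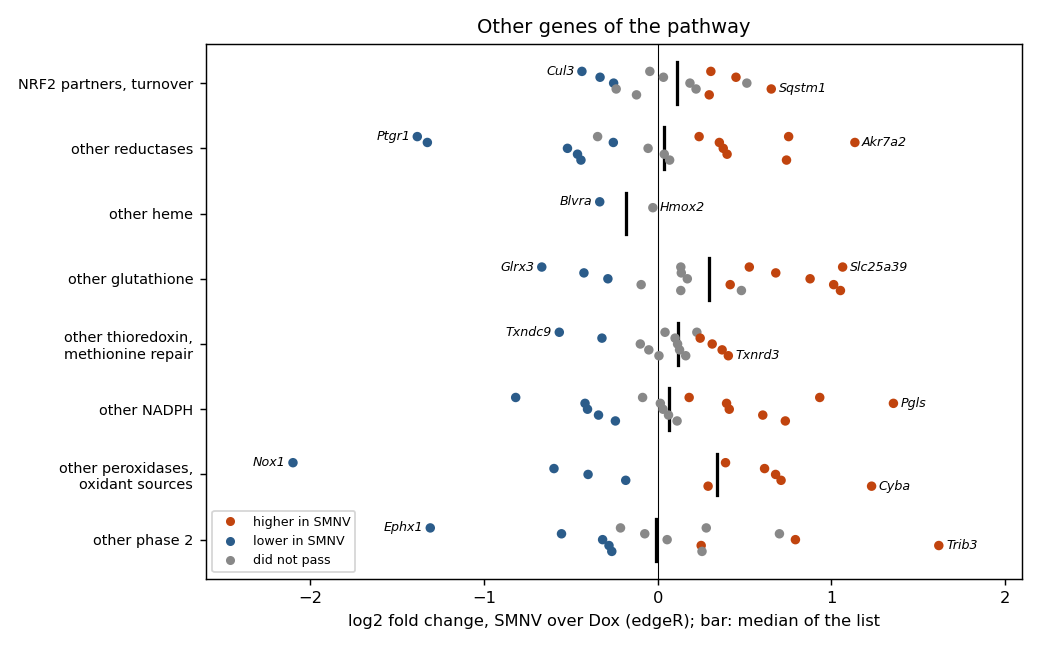
Log2 fold change in SMNV over Dox (horizontal axis, edgeR) of the 105 tested genes in 8 further lists of the pathway, 1 point a gene, red higher in SMNV, blue lower and grey not passed; black bars are list medians. The points spread to both sides of 0 in nearly every list, and the medians run from -0.18 for heme breakdown to 0.34 for peroxidases and oxidant sources; Nox1 at the far left averaged only 0.483 CPM.

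Over the 8 further lists, 134 genes were named, 129 had a row and 105 were tested. In SMNV 38 were higher, 29 lower and 38 did not pass, 63.8% called beside 60.4% of all tested genes, with a median of 0.12. On TPM 26 were higher and 36 lower. The balance of directions in these lists thus differed between the tables.

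What the genes share beyond their role gave uneven counts. Groupings named in this paragraph were chosen after the values were seen and carry no test; of all tested genes, 30.5% were higher and 29.9% lower. Of the 5 selenoprotein genes, Txnrd2, Gpx3 and Gpx4 rose, none fell, and Gpx1 and Txnrd1 did not pass. Of the 5 genes for mitochondrial enzymes, Txnrd2 and Prdx5 rose, Prdx3 and Sod2 fell, and Txn2 did not pass. Of the 8 genes with the response element letters near their start, Prdx4 and Prdx5 rose, Nfe2l2, Me1, Prdx1 and Sod2 fell, and Gclm and Txnrd1 did not pass. Single libraries also recurred: 12 of the 15 higher genes had their lowest Dox CPM in Dox 1, and 9 of the 15 their lowest SMNV CPM in SMNV 2. The same count was not made over all tested genes, so this recurrence may not be particular to the collection. Without Dox 1, the 15 genes were still called higher.

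**Figure D5:**
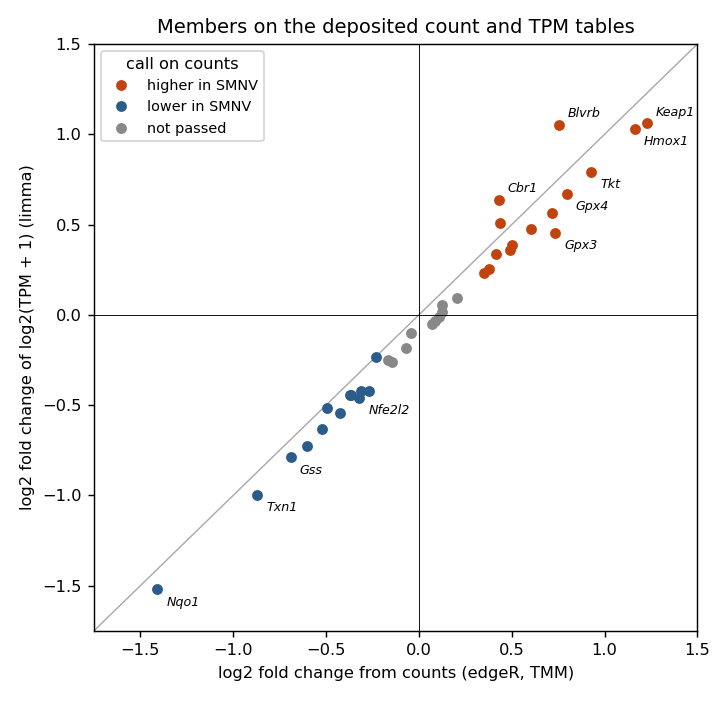
Log2 fold change of each of the 38 genes from the counts (horizontal axis, edgeR with TMM scaling) and from the authors' TPM (vertical axis, limma on log2(TPM + 1)), coloured by the call on counts; the grey line marks equal values. Points lie mostly just below the line, Blvrb (0.75 on counts, 1.05 on TPM) and Cbr1 stand above it, and Gpx3 (0.73 on counts, 0.45 on TPM) lies farthest below among the labelled higher genes.

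Per length over all libraries, the most abundant genes of the collection were Prdx1, Nqo1, Akr1a1, the Pgd row, Prdx2 and Gpx4. Prdx1 stood at 683 ± 42.7 TPM in SMNV and 1129.5 ± 88.1 TPM in Dox, and Nqo1 stood at 369 ± 5.14 TPM in SMNV and 1061 ± 10.8 TPM in Dox (SD, n = 3 each). Akr1a1 stood at 692 ± 37.8 TPM in SMNV and 589.8 ± 16.7 TPM in Dox (SD, n = 3 each). In SMNV the TPM of Prdx1 and Akr1a1 did not differ beyond their spread. Without the Pgd row, the 37 other genes summed to 5388 ± 156 TPM in SMNV and 6235 ± 91.1 TPM in Dox (SD, n = 3 each), and each SMNV library was lower than each Dox library.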

How the data were processed

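Poly(A) RNA-seq of 6 libraries, 3 SMNV and 3 Dox, was compared. Tools named in the submitters' processing notes are HISAT2, HTSeq and fastp, with the build mRatBN7.2 and no roles. No source used here gives versions, annotation release or strand setting, so reads of a gene and of an antisense or overlapping gene are not separable. The authors deposited a table of unnormalized estimated counts, per the file headers and column totals, in which 17.9% to 18.8% of the values above 0 had decimals of unstated origin. Columns summed to 18640909 to 21506967. The authors also deposited TPM, which are scaled by gene length and sum to 1 fixed total in each library. There were 30560 rows, 17484 of them with any count. For count models the estimated counts were first rounded to integers.

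Rows passing filterByExpr (12614) were scaled with TMM factors and tested with edgeR 4.0.16 in R 4.3.3 (glmQLFit and glmQLFTest, group as the only term, two-sided, Benjamini-Hochberg over all tested genes, threshold 0.05). The SE was derived from the log2 fold change and the F statistic. CPM are TMM-scaled unless stated otherwise. TPM were tested with limma 3.58.1 on log2(TPM + 1) without scaling factors, a scale on which the changes of low genes are understated. DESeq2 1.42.0, voom, RLE and upper-quartile scaling, other filters, a pseudocount of 0.1, gene length offsets, summed rows of 1 symbol and fits without each library were alternatives. The procedure was also run on simulated data in which few genes changed, unlike here, so that run does not cover changes this broad.

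The genes and lists were chosen with earlier results of these data known. All genes of the collection are named by role, with values per library for Nfe2l2, Keap1, Hmox1, Nqo1 and the 3 smallest p-values of each role. Of the further lists, up to 2 genes per list and direction with the smallest p and a mean of at least 5 CPM are named, except 1 gene that is not reported here. Nox1, Hmox2 and the Srxn1 row were named after their values were seen. A planned comparison of protein sequences was not made. Promoter letters come from RefSeq (GRCr8).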

Additional observations from a re-analysis of the deposited data

How the results depend on the processing

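Over 20 alternative settings, the 38 genes gave 726 values with the same call and sign as the reported ones, 7 that gained a call, 5 that lost it and 21 of the other sign, all 21 in genes that had not passed. The 15 higher genes kept their calls in all 20 settings, and 10 of the 13 lower ones did. The number of genes called changed little: 7255 of 12614 with DESeq2, 7730 on TPM, 7667 with no filter, and 6638 to 7430 with a library left out (15 to 16 of the 38 genes higher and 11 to 13 lower). In the further lists, 34 to 38 genes were higher and 25 to 27 lower with a library left out.

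The sign of Cbr3 turned on TPM (-0.0147, and -0.0158 with a pseudocount of 0.1) and with the gene length trend removed (-0.0075). Gclm turned in the same settings (-0.0499 and -0.0517 on TPM, -0.038 without the length trend), as did Gpx1 (-0.0365, -0.0368 and -0.0378). Prdx6 became 0.013 without the length trend. Txnrd1 became 0.0727 with a promoter GC trend removed, an alternative chosen after seeing the data. Of the tested genes 74.0% had a GC value, so over all genes this check is void; 33 of the 38 genes had one, and the Txnrd1 value used a window other than the one printed. The Gsk3b and Glrx2 calls were lost under it. With a library left out, Slc7a11 had -0.0279 to 0.32, Osgin1 -0.0353 to 0.268, Prdx6 -0.0794 to 0.0073 and Gpx1 -0.0171 to 0.181. Without the Pgd row, also chosen after seeing the data, 15 genes were higher and 12 lower. The causes of these turns were not tested.

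Fitted with the replicate number as a block, 7387 genes changed, with 15 of the 38 genes higher and 13 lower, and the block together with the length trend gave 7348 genes. In that pairing Cbr3 was -0.0084, Gclm -0.0396, Prdx6 0.0125 and Gpx1 -0.0387, and with the block and the GC trend Txnrd1 was 0.0764, while Blvra was no longer called (-0.21, adjusted p = 0.0539). The correlations of the deviations of same-numbered libraries were 0.00764, -0.116 and 0.00165. Those of differently numbered libraries ran from -0.1325 (SMNV 3 with Dox 1) to 0.1375 (SMNV 3 with Dox 2). With 3 libraries per group these values cannot tell whether equal numbers share a culture.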

Other observations

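The listed gene length and the length implied by a row's own counts and TPM were compared for the 38 genes, with the ratio scaled so that a typical gene is near 1. For Nqo1 the ratio was 1.08 to 1.09 over the 6 libraries and for Hmox1 1.08 to 1.09. For Blvrb it was 2.31, 2.15 and 2.43 in SMNV 1, 2 and 3, against 1.76, 1.73 and 1.64 in Dox 1, 2 and 3, and for Prdx2 1.60, 1.56 and 1.64 in SMNV, against 1.39, 1.41 and 1.40 in Dox. For Gpx3 the ratio was 1.20, 1.08 and 1.08 in SMNV, against 1.08, 1.40 and 1.26 in Dox. For Cbr1 it was 1.13, 0.827 and 1.14 in SMNV 1, 2 and 3, against 0.83, 0.854 and 0.737 in Dox 1, 2 and 3. Blvrb, Prdx2, Gpx3 and Cbr1 were picked after these values were seen. Such a shift of the ratio between libraries moves the TPM fold change of a gene away from that of its counts, and its source was not tested.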
